A study of Arabidopsis thaliana with 3 samples.

Results

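VSP1 (AT5G24780) and VSP2 (AT5G24770), the vegetative storage protein genes of Arabidopsis thaliana, were examined for binding by GRF5, one of the plant growth-regulating factors, which are DNA-binding activators of cell proliferation in leaves and roots. Every entry for these 2 genes was taken from both deposited GRF5 peak lists, 6 entries in each, out of 27846 genes with a nuclear peak in either list. The pair was selected on fold enrichment: that of VSP1 was known to be among the highest in the lists, and VSP2 is its neighbouring paralogue. Their fold enrichments are therefore given as a description, with no test.

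The peaks came from DNA affinity purification sequencing (DAP-seq), in which a purified transcription factor binds sheared genomic DNA in the test tube and the recovered fragments are sequenced. His-tagged GRF5 made in Escherichia coli was mixed with root DNA of wild-type Col-0 seedlings, and the bound DNA was recovered with an antibody against GRF5. Seedlings 7 days old had been moved to 0.2 mM nitrate for 3 days, and this held for both GRF5 libraries, called replicates 1 and 2, and for the 1 input library. The DNA had been purified first, so a peak shows what GRF5 can bind without chromatin, and the libraries hold no measure of VSP expression or of root markers. The series text also describes chromatin immunoprecipitation under the names these lists carry, but the sample titles and protocols describe DAP-seq, the name used here. The labels call the libraries biological replicates without saying whether protein or DNA was prepared separately, so their spread may be technical.

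Vegetative storage proteins are vacuolar glycoproteins related to plant acid phosphatases of the haloacid dehalogenase type, and they serve as a store of amino acids in shoots and flowers. Transcription of VSP1 and VSP2 is induced by jasmonate and wounding: the receptor COI1 triggers breakdown of JAZ repressors, which frees MYC2 and related transcription factors. VSP2 is also known as an anti-insect acid phosphatase, and both genes are widely used as reporters of the jasmonate response.

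Both genes carried GRF5 peaks in both replicates, but at different places and of different height. VSP1 had a single peak within its coding exons and introns, with about 9-fold enrichment, and none in its promoter. VSP2 had 2 peaks, both annotated to its promoter, with about 2-fold enrichment, and none over its coding exons or introns. A peak shared by both replicates was found in some region for 54.4% of the 27444 nuclear protein-coding genes, over a coding exon or intron for 32.2%, and in the promoter for 35.2%. In the single lists, 70.0% of these genes had a peak in replicate 1 and 68.2% in replicate 2. Having a peak thus did not set either gene apart from most genes.

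The VSP1 peak lay on chromosome 5 from 8507668 to 8508338 in replicate 1 and from 8507670 to 8508352 in replicate 2 (TAIR10, 1-based). The authors' annotation gave it 2 entries for coding exons and 2 for introns in each list, all for VSP1, and no entry for another gene. Its summits, as the lists give them, were 8508106 and 8508117, so they differed by 11 bp. The peak's bounds were also nearly the same, with the starts 2 bp and the ends 14 bp apart. In both replicates the summit lay toward the right end of the peak, 439 of 671 bp and 448 of 683 bp from its left end.

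At the VSP1 summit the pileup was 412 fragments in replicate 1 and 389 in replicate 2. The 95% Poisson intervals, which cover counting error only, were 373 to 454 and 351 to 430. The median nuclear peak had 85 and 81 fragments, so the VSP1 summit stood 4.85 and 4.80 times above it. Fold enrichment, the authors' ratio of the summit pileup to a local background from the input, was 8.93 in replicate 1 and 9.08 in replicate 2 (mean 9.01 ± 0.10, SD, n = 2). The libraries thus gave VSP1 nearly equal values, with a log2 ratio of replicate 1 to replicate 2 of -0.02, against an SD of 0.15 for that ratio over the 269 shared peaks of at least 3-fold. The −log10 q was 235 and 224.

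Among 28349 nuclear peaks of replicate 1 the VSP1 peak was the sixth by fold enrichment, and among 27054 of replicate 2 it was the fifth. It ranked 6 among the 19008 shared peaks and first among the 4364 on chromosome 5. The next on that chromosome, over AT5G38760 and the promoter of the glutamine dumper gene GDU7, had a mean of 7.67-fold. Its neighbours in the genome-wide order were an intergenic peak with a mean of 9.33-fold and a peak over AT4G06567 with 8.96-fold. Between the replicates these differed by more than they differed from VSP1, at 9.63- and 9.03-fold and 9.58- and 8.33-fold, so places next to VSP1 are not separated by these data. By summit pileup alone VSP1 ranked lower, 27 and 31, and by −log10 q it ranked 8 and 7.

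**Figure D1:**
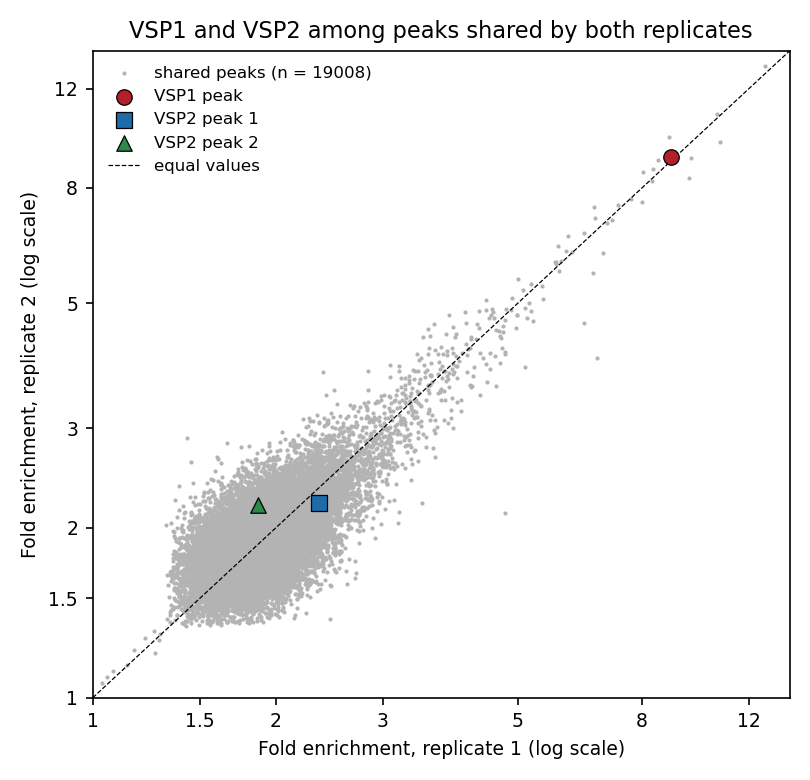
Fold enrichment in replicate 1 (x axis) and replicate 2 (y axis), both on log scales, for the 19008 peaks shared by both replicates (grey points), with the peaks of VSP1 and VSP2 in colour and a dashed line at equal values. The VSP1 peak lies close to the line at 8.93 and 9.08, while both VSP2 peaks lie within the main cloud, at 2.36 and 2.21 and at 1.87 and 2.2.

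The first VSP2 peak lay on chromosome 5 from 8501883 to 8502493 in replicate 1 and from 8501871 to 8502472 in replicate 2. Its summits, 8502063 and 8502111, were 48 bp apart. It was annotated to the promoter of VSP2 and also to that of AT5G24775, a pseudogene by the RefSeq table that sits between the VSP genes. The summit pileup was 98 fragments in replicate 1 (95% Poisson interval 79.6 to 119) and 85 in replicate 2 (67.9 to 105). Fold enrichment was 2.36 and 2.21 (mean 2.28 ± 0.11, SD, n = 2). It was stronger than 93.3% of the peaks of replicate 1 and 86.8% of those of replicate 2, though far below VSP1.

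The second VSP2 peak, narrower, lay from 8503530 to 8503830 in replicate 1 and from 8503521 to 8503819 in replicate 2. Its summits, 8503690 and 8503687, agreed to 3 bp. It was annotated to the VSP2 promoter and to an exon of AT5G24775, so neither VSP2 peak was assigned to VSP2 alone. The pileup was 76 fragments in replicate 1 (59.9 to 95.1) and 84 in replicate 2 (67.0 to 104). Fold enrichment was 1.87 and 2.2 (mean 2.03 ± 0.23, SD, n = 2), stronger than 56.5% and 86.1% of the peaks in each list. This peak varied more between the libraries than the other VSP peaks, with a log2 ratio of replicate 1 to replicate 2 of -0.23, beside an SD of 0.20 over shared peaks with a mean of 2 to 2.5-fold.

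The order of the VSP2 peaks was not settled. The first exceeded the second by 0.34 on the log2 scale in replicate 1 and by 0.01 in replicate 2. At least 1 shared promoter peak was found for 9670 nuclear protein-coding genes. Of these, 1065 had 2 or more, as VSP2 did, which is 3.88% of all nuclear protein-coding genes. The highest shared promoter peak of VSP2, at 2.28-fold, was above those of 88.9% of the 9670 genes with such a peak, whose median was 1.90-fold.

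Neighbouring copies thus differed in where GRF5 was recovered. A shared peak over a coding exon or intron with none in the promoter, as at VSP1, was seen for 19.1% of nuclear protein-coding genes, and the reverse, as at VSP2, for 22.2%. VSP1 belonged to the 1.32% of genes with a shared peak averaging at least 3-fold, which VSP2 did not reach. The highest VSP1 peak exceeded the highest VSP2 peak 3.78 times in replicate 1 and 4.11 times in replicate 2, a mean log2 ratio of 1.98 ± 0.08 (SD, n = 2). That is many times the SD of 0.19 between replicates over all shared peaks, but VSP1 was chosen for its height and the difference was not tested. Both replicates also share 1 input, so error from the input may not show in that SD.

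How reads that match more than one of these similar sequences were treated is not given in the sources used here, and no sequence was compared. Fragments that could come from VSP1, VSP2 or the pseudogene between them may therefore have been divided among them or dropped, and the part of this in the values was not tested.

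The input-based background was somewhat lower at the VSP2 peaks than at the VSP1 peak. Implied from pileup and fold enrichment, it was 45.2 fragments at VSP1 in replicate 1 and 42.0 in replicate 2, close to the medians of 46.1 and 43.1 over all peaks. At the first VSP2 peak it was 40.9 and 37.9, and at the second 40.2 and 37.7. Between 7.60% and 9.62% of all peaks had a lower background than those at VSP2. Expressed as pileup, VSP1 therefore stood further above VSP2 than as fold enrichment, 4.20 and 4.58 times for the first VSP2 peak. The first VSP2 peak had more fragments than 82.5% of peaks in replicate 1 and 63.7% in replicate 2, and the second more than 18.3% and 60.6%.

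**Figure D2:**
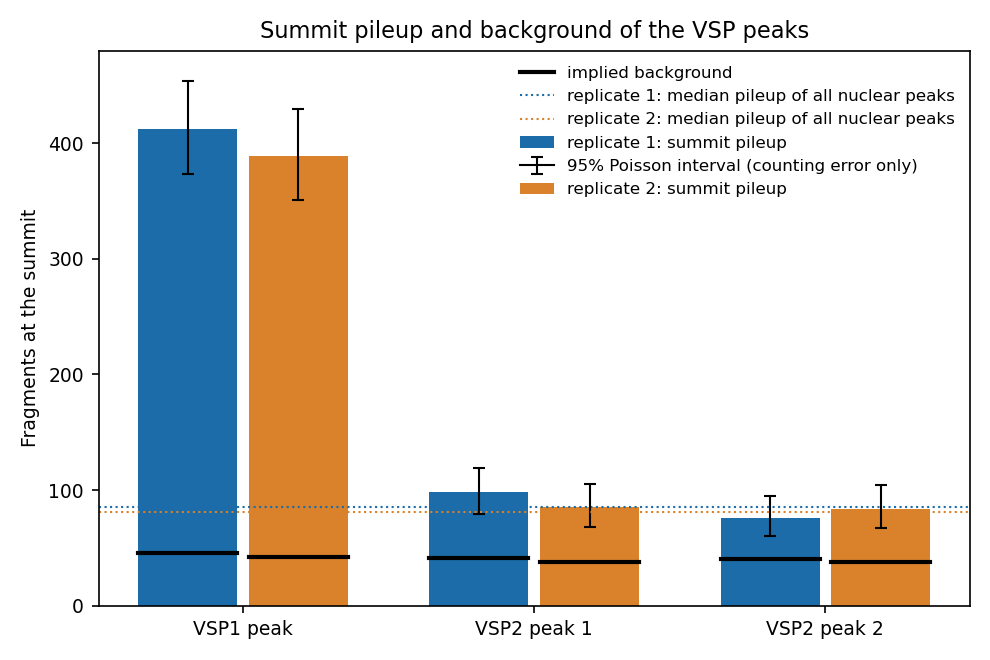
Summit pileup in fragments (bars, replicate 1 blue and replicate 2 orange) of the VSP1 peak and both VSP2 peaks, with 95% Poisson intervals for counting error only, the implied background as black lines, and the median pileup of all nuclear peaks as dotted lines. VSP1 reaches 412 and 389 fragments, and the VSP2 bars, between 76 and 98, have intervals that include the medians of 85 and 81.

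Along the chromosome the VSP2 peaks lay close together and VSP1 stood apart from the next peak on its right. From the first VSP2 summit to the second was 1627 bp in replicate 1 and 1576 bp in replicate 2, and from the second to the VSP1 summit 4416 and 4430 bp. The VSP2 peaks were separated by a gap of 1036 and 1048 bp, less than the median gap between peaks of 2316 and 2464 bp. No peak was called between the second VSP2 peak and VSP1, a gap of 3837 and 3850 bp, wider than 68.2% and 66.1% of all gaps. To the left of the first VSP2 peak the gap was 5317 and 5442 bp, wider than 78.8% and 77.7%. To the right of the VSP1 peak it was 9591 and 9597 bp, wider than 92.9% and 92.1%. AT5G24790 and BZIP9 (AT5G24800), a basic leucine zipper transcription factor gene, follow VSP1 in gene order and had no peak in either list.

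Less than 10 kb from the VSP peaks, replicate 1 had 8 peaks and replicate 2 had 7, the VSP peaks included, and 7 were shared. The strongest other was over coding exons and introns of AT5G24750, a UDP-glycosyltransferase superfamily gene by the authors' annotation, with 3.91- and 3.75-fold enrichment. The same gene had a second peak over its coding exons and introns with 1.64- and 1.99-fold. AT5G24760, a zinc-binding dehydrogenase family gene next to VSP2, had coding peaks of 1.60- and 2.19-fold in replicate 1 and a single 1.88-fold peak in replicate 2. Each of these was also annotated to the promoter of AT5G24750. On the other side AT5G24810, an ABC1 family gene, had 1.70- and 1.61-fold at its peak nearest to VSP1. VSP1 was the highest of these peaks in both libraries, which follows from its first place on chromosome 5 and adds nothing to it.

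**Figure D3:**
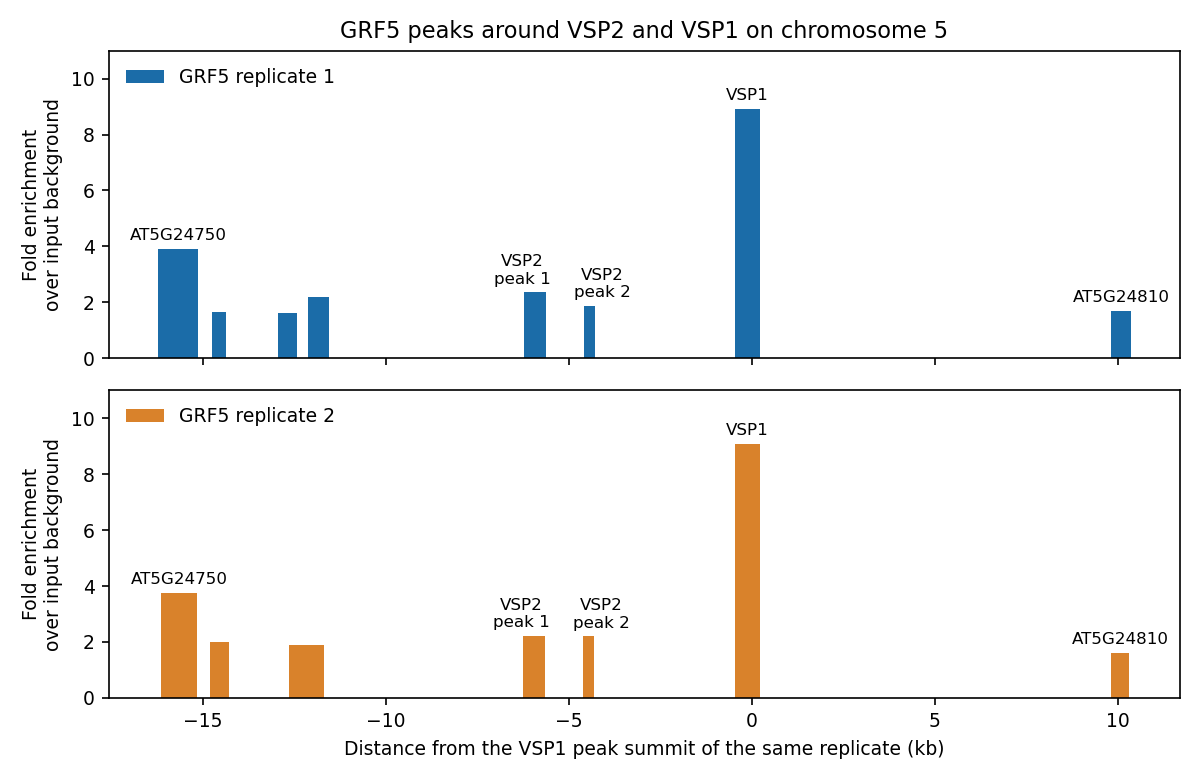
Peaks less than 10 kb from the VSP peaks in replicate 1 (top) and replicate 2 (bottom); the x axis is the distance in kb from the VSP1 summit of the same replicate, bars span each peak, and bar height is fold enrichment. VSP1 reaches 8.93 and 9.08, the VSP2 peaks 1 and 2 lie to its left at 1.87 to 2.36, and no peak is seen for 9591 and 9597 bp to its right.

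The gap in height between VSP1 and VSP2 was set beside other neighbours. Peaks at both genes in both lists were found for 11210 of 27439 pairs of adjacent nuclear protein-coding genes. Their highest fold enrichments differed by a median of 0.10 on the log2 scale, and 23.8% of pairs had the same peak as their highest in both lists. Such pairs cannot differ, which lowers the median. It was not taken over the 7070 pairs whose highest peaks differed in both lists. VSP1 and VSP2 differed by 1.98, which 10 other pairs reached or exceeded. These pairs are not all independent, since the peak over RBP45B (AT1G11650), annotated to several genes, entered more than 1 of them. VSP1 was chosen as one of the highest peaks, so the place of its pair in this order is a description only.

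**Figure D4:**
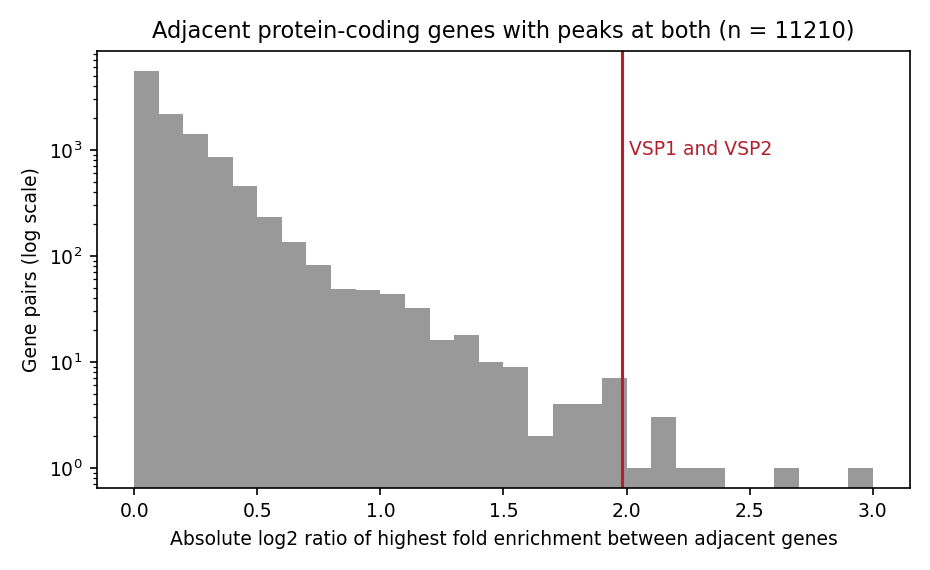
Histogram of the absolute log2 ratio of the highest fold enrichments (x axis, mean of both replicates) of adjacent protein-coding genes with peaks at both in both lists; the y axis is the number of the 11210 pairs on a log scale. The red line marks VSP1 and VSP2 at 1.98, with 10 pairs at or beyond it.

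The genes most alike to VSP1 in height, among 3825 others whose highest peak was likewise annotated to coding exon and intron, and to no other region, of the gene in both lists, were found by distance on the log2 scale over the 2 replicate values. The nearest was RBP45B (AT1G11650), an RNA-binding protein gene, with 8.49- and 8.97-fold enrichment and a distance of 0.08. PHV (AT1G30490), a homeobox gene that helps set the upper side of leaves, followed with 8.86- and 9.87-fold and a distance of 0.12. AT3G51050 had 8.32- and 8.24-fold, AT2G12400 8.04- and 8.54-fold, and B160 (AT4G21430) 7.99- and 7.55-fold. Unlike the VSP1 peak, that of RBP45B was also annotated to promoters of neighbouring genes.

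Shared peaks averaging at least 3-fold were found for 1.32% of all nuclear protein-coding genes. Other acid phosphatase genes related to the VSP genes had none of that height. Of 8 listed, 4 had a shared peak (beside 54.4% of all nuclear protein-coding genes), with means from 1.72 to 1.82-fold and a median of 1.75, below the median of 1.92 over all genes with a shared peak. AT2G38600 had 1.75- and 1.89-fold enrichment over coding exon and intron, and AT4G25150 had 1.70- and 1.86-fold over a coding exon. The neighbours AT4G29260 and AT4G29270 lay on the same peak, with 1.74- and 1.70-fold. AT5G51260, AT5G44020 and AT1G04040 had no peak in either list, and AT2G39920 had one in replicate 2 alone. Their highest values were below those of the first VSP2 peak in both replicates. Lying nearer to VSP2 than to VSP1 in height is usual, since VSP1 was chosen for its height. Lying below VSP2 is usual too: its highest shared promoter peak was above those of 88.9% of genes with such a peak.

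Of 39 genes of the jasmonate pathway, which switches the VSP genes on, 20 had a shared peak (51.3%, against 54.4% of all), 13 in the promoter (beside 35.2%) and 13 over a coding exon or intron (beside 32.2%). Their median was 1.95-fold. Of the 20, 1 averaged at least 3-fold, ANAC019, beside 363 of the 14922 nuclear protein-coding genes with a shared peak. The list was drawn up with earlier results of these data known, so this count is a description only. The share with a peak was thus close to that of all genes.

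Jasmonate synthesis genes had a shared peak in 8 of 13 cases (61.5%, near the 54.4% of all genes). In the promoter of LOX6, a lipoxygenase gene, enrichment was 2.56-fold in replicate 1 and 1.76-fold in replicate 2, a wider spread than at VSP1. OPR3 and LOX4 had no peak in either list. Of the breakdown genes, CYP94B3, a jasmonoyl-isoleucine hydroxylase gene, had 2.32- and 1.85-fold over a coding exon, and CYP94C1 had none.

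The receptor gene COI1 had 3 shared peaks, the highest over coding exon and intron with 3.12- and 2.74-fold enrichment. Among repressors, 7 of 15 had a shared peak (46.7%, beside 54.4% of all genes). TPL, the corepressor gene, had 2.33- and 2.81-fold over coding exon and intron, and JAZ12 had 1.91- and 2.22-fold in its promoter. JAZ1, JAZ5, JAZ7, JAZ8, JAZ9 and AT3G22275 had no peak in either list.

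Among the transcription factor and mediator genes, 3 of 7 had a shared peak (42.9%, beside 54.4% of all genes). ANAC019 (AT1G52890), a NAC factor gene that acts downstream of MYC2 in jasmonate responses, reached 7.31- and 7.45-fold from its promoter into coding sequence, the only member of the list near VSP1. MYC2, the main activator of the VSP genes, and ANAC055 had no peak in either list, and neither did TAT3, another jasmonate-induced gene. VSP1 stood above each of the 20 list members with a shared peak in both replicates. It was chosen for its height, so this is a description only. VSP2, at 2.36 and 2.21, lay in mean height between TPL and LOX6.

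**Figure D5:**
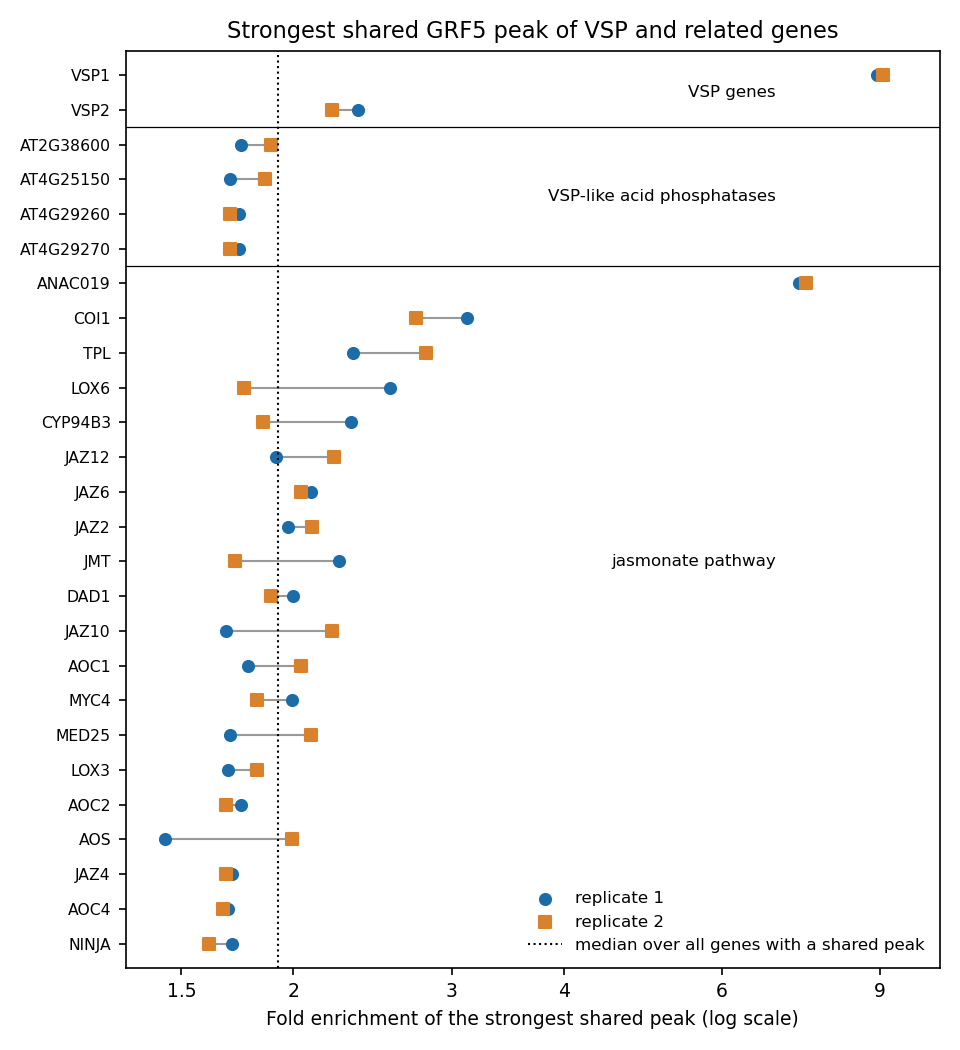
Fold enrichment (x axis, log scale) of the strongest shared peak in replicate 1 (blue circles) and replicate 2 (orange squares) for VSP1, VSP2, the 4 related acid phosphatase genes and the 20 jasmonate pathway genes with a shared peak; the dotted line is the median of 1.92 over all genes with one. VSP1 is at 8.93 and 9.08 and ANAC019 at 7.31 and 7.45, while the remaining genes lie at 3.12 or below.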

How the data were processed

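The submitters' processing notes name the build TAIR10 and the tools MACS2 2.2.7.1 (peak calling), Bowtie2 2.4.6 (alignment) and Trimmomatic 0.39 (trimming). Judged from the deposited file names and peak names, each replicate had its own peak calling against the same input. Not given in the sources used here are caller settings, read filters, the treatment of multi-mapping reads and the promoter length. The deposited pileup signal is a whole number of fragments at the summit, with no scaling stated. The deposited fold enrichment is a ratio of pileup to local background, and −log10 p and −log10 q values are MACS2's, per the file headers. No nuclear peak had a q above 0.05. Positions are the deposited ones; 1 was added to starts for 1-based coordinates. Library totals are unknown here and pileups alone speak to depth.

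Entries were collapsed to peaks of the 5 nuclear chromosomes. A shared peak is a 1 to 1 pair, longest overlap first, that covers 50% or more of the shorter peak. The mean of both fold enrichments gave a shared peak's height, and a gene's height was its highest peak. Implied background is pileup plus 1 over fold enrichment, minus 1, which assumes MACS2's usual pseudocount. Poisson intervals are exact at 95%. Symbols, gene types and gene order came from a RefSeq table of TAIR10.1, whose coordinates were not printed; 27953 of 27978 gene identifiers matched, and 38 of 39 jasmonate symbols were found there.

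The members, the lists and the rules for naming genes were chosen with earlier results of these data known. Named were the VSP genes, genes on or less than 10 kb from their peaks, the 5 most alike to VSP1, and up to 6 members per list, those without a peak and further members chosen after their values were seen. No test was made, since VSP1 was chosen on fold enrichment and only 2 libraries share 1 input. Alternatives were single replicates, other overlaps, a −log10 q of at least 5, single regions and other measures of height. Pairing and per-gene values were tested on simulated peaks. Python 3.11.15, numpy 2.4.6, pandas 2.3.3, scipy 1.17.1 and matplotlib 3.10.9 were used.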

Additional observations from a re-analysis of the deposited data

How the results depend on the processing

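No paired analysis was possible because the results come from no test and the only group with peak lists is GRF5. Taking each replicate alone gave 8.93 to 9.08-fold for VSP1, 2.21 to 2.36-fold for VSP2 and a log2 ratio of 1.92 to 2.04, and these were 9.01, 2.28 and 1.98 also with peaks of −log10 q of at least 5 or shared peaks only. VSP1 has no promoter peak and VSP2 none in its coding exons or introns, so their ratio within one region could not be formed. The VSP1 peak exceeded 99.97% of shared peaks by fold enrichment and 99.85% by mean summit pileup. The number of jasmonate pathway genes with a peak, 20 in any region, was 13 for promoters (35.2% of all genes), 13 for coding exons or introns (32.2%) and 10 with −log10 q of at least 5 in both lists (27.9%). It was 23 to 26 of 39 in single replicates, where 68.2% and 70.0% of all genes had a peak. For related acid phosphatases, 4 in any region, it was 2 of 8 for promoters and 0 with −log10 q of at least 5 in both lists, beside the same shares of all genes. Of the alternative values, 32 stayed within the replicate or counting error or 1.5 times the count, 6 moved further, as given above, and none reversed. Restricting adjacent pairs to alike proteins was not run, as no protein sequences were used here. Restricting them to pairs whose highest peaks differed in both lists, which also leaves out pairs that had the same one in a single list, was chosen after seeing the data and left 7070 pairs, of which 10 besides VSP1 and VSP2 reached the VSP difference.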

Other observations

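Of 5 function terms that the authors' annotation attaches to VSP1 and 10 to VSP2, 4 are common to them: plant-type vacuole, acid phosphatase activity, response to jasmonic acid and nutrient reservoir activity. Among genes listed with each term, VSP1 had the highest shared peak. VSP1 was chosen for its height, so this rank is a description only. The term sets hold only genes with a peak in the lists, and they were chosen after the data were seen. Their shares with a shared peak are therefore not comparable with the 54.4% of all nuclear protein-coding genes. For acid phosphatase activity, 24 of 37 listed genes had a shared peak. The 22 besides VSP1 and VSP2 were at 1.54 to 2.53-fold, and VSP2 ranked 3 at 2.28-fold. The gene between VSP1 and VSP2 in that order was PAP11 (AT2G18130), a purple acid phosphatase gene, with a promoter peak of 2.63- and 2.44-fold. For nutrient reservoir activity, 14 of 18 listed genes had a shared peak, and the 12 besides VSP1 and VSP2 were at 1.47 to 2.30-fold. Among them the vacuolar proton ATPase gene VHA-A3 had 2.28- and 2.32-fold in its promoter, and the seed storage albumin gene SESA1 1.95- and 1.91-fold.

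The plant-type vacuole set was larger, with a shared peak at 394 of 565 listed genes. The 392 besides VSP1 and VSP2 had a median of 1.92-fold and a maximum of 8.28-fold at AT3G51050. No other of these sets had a gene close to VSP1. For response to jasmonic acid, 74 of 115 listed genes had a shared peak. Of the 72 besides VSP1 and VSP2, COI1 was the highest with 2.93-fold, and their median was 1.89-fold.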
